A study of Mus musculus with 20 samples.

Results

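The urokinase system and serpin genes examined were Plau, Plaur, Plat, Serpine2, Serpinb2, Serpinb5, Serpinb3a, Serpinb3b and Serpinb3c. They were taken by symbol from the table of read counts per gene, and all 9 were found among its 22090 genes. The study followed the course from normal skin (NS) through actinic keratosis (AK), a precancerous lesion, to cutaneous squamous cell carcinoma (cSCC). The mice were hairless females of the SKH-1 strain with a stated age of 7 months. By the methods this was their age when they were divided into groups, and tissues were taken after the weeks of irradiation that followed. RNA-seq libraries were available for 8 NS, 8 AK and 4 cSCC tissues, named below by group and by the number in the label. By the labels, 4 mice were left without light burn and 4 were irradiated with ultraviolet rays every day (the UVR group), whereas the methods of the study give fewer days a week. Each irradiated mouse gave a normal tissue and the lesions, so the AK, the cSCC and part of the NS tissues came from the same 4 mice. The labels do not say which tissue came from which mouse, which NS tissues were irradiated, or the grade of an AK, so the tissues were compared as independent samples. The p-values therefore measure the spread between tissues, some of which share a mouse.

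The plasminogen system is a chain of secreted serine proteases that dissolves fibrin and loosens the matrix around cells. Plau encodes urokinase and Plat encodes tissue plasminogen activator, the enzymes that convert plasminogen into plasmin. Urokinase binds to a receptor anchored in the cell membrane, the product of Plaur, which confines its activity to the cell surface. Serpins block such proteases by offering a reactive loop as bait. Serpine2 (protease nexin 1) is a secreted serpin that inhibits thrombin and plasminogen activators. Serpinb2 (plasminogen activator inhibitor 2) belongs to clade B, a group of mostly intracellular serpins abundant in stratified epithelium. Serpinb5 (maspin) is an epithelial clade B serpin without protease inhibitory activity of the usual kind. Serpinb3a, Serpinb3b and Serpinb3c are mouse relatives of the human squamous cell carcinoma antigens.

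The genes fell at several places in the genome (GENCODE M21 annotation, GRCm38). Plau was located at chr14:20836660-20843385, Plaur at chr7:24462484-24475968 and Plat at chr8:22757727-22782844, each on the plus strand. Serpine2 was located at chr1:79794197-79861180 on the minus strand. The 5 clade B genes all lay in 1 cluster of 11 protein-coding Serpinb genes on chromosome 1, between positions 106861173 and 107610484. In that cluster, Serpinb5 (chr1:106861173-106883348) and Serpinb2 (chr1:107511423-107535478) were on the plus strand. Serpinb3a (chr1:107045587-107052303), Serpinb3b (chr1:107153940-107278361) and Serpinb3c (chr1:107271201-107278371) were on the minus strand. The annotated span of Serpinb3b overlapped that of Serpinb3c on the same strand, and 35 of the 1659 exonic bases of Serpinb3c were also exonic in Serpinb3b.

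Serpinb3a, Serpinb3b and Serpinb3c are close copies of one another, which bears on how reads could be assigned to them. Their coding sequences (GENCODE M21 transcripts) were 91.3% to 93.1% identical, and the longest run shared by Serpinb3b and Serpinb3c was 107 bases. Over the whole alignment, 131 of 1161 columns differed. The end of the coding sequence is shown because in serpins it encodes the reactive loop that meets the protease. Capitals mark the 22 of 180 aligned columns that differ among the 3 genes, of which 14 fell in the first 90 columns and 8 in the last 90.
Serpinb3a, coding bases 982 to 1161: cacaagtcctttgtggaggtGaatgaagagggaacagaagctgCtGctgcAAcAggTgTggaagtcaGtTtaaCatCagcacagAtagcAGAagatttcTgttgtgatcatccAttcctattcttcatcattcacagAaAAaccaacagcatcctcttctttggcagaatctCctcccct
Serpinb3b, coding bases 982 to 1161: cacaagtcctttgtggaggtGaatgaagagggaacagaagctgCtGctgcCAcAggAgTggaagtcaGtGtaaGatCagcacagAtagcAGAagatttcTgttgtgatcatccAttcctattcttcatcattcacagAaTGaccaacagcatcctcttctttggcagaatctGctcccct
Serpinb3c, coding bases 982 to 1158: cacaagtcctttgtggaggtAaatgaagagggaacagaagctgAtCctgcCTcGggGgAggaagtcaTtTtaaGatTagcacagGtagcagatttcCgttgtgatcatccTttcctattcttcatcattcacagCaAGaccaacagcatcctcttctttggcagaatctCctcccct
The Serpinb3c stretch was 177 bases long, since it lacked 1 codon of the others. Counts of these 3 genes can have been split between copies in the deposited table, so their separate values were read together with their sum.

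RefSeq promoter sequences (GRCm38.p6) were found for 7 of the 9 genes, Plau and Plat being without one. The RefSeq start site used for Serpinb3b lies inside the longer GENCODE span of that gene given above. The 250 bases before the start site are shown for Plaur, the gene with the highest fold change in cSCC, and for the 4 clade B genes with a TATA box match. Capitals mark a match to the AP-1 motif TGAGTCA in Plaur and to the TATA box letters TATAAA in the others, each searched on both strands.
Plaur promoter, chr7:24462233-24462482, plus strand: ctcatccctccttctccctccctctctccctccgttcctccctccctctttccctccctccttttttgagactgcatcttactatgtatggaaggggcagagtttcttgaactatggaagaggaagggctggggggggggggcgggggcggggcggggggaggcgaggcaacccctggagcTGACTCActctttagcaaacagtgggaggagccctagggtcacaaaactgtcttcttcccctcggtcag
Serpinb2 promoter, chr1:107511173-107511422, plus strand: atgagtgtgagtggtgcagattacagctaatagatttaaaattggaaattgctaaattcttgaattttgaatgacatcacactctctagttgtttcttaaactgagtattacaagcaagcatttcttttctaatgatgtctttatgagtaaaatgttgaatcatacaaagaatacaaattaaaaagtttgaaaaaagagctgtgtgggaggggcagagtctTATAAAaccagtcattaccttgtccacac
Serpinb3a promoter, chr1:107052304-107052553, minus strand: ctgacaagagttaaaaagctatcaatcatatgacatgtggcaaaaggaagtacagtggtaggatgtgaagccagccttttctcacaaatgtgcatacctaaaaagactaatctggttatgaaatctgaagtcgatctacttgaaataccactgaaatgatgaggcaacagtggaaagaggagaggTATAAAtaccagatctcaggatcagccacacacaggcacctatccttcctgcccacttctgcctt
Serpinb3b promoter, chr1:107161115-107161364, minus strand: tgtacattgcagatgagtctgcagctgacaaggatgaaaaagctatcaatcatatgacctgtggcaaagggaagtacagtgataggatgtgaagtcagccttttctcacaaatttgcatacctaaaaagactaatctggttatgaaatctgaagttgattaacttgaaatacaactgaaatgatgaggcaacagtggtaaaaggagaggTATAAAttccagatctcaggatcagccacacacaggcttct
Serpinb3c promoter, chr1:107278372-107278621, minus strand: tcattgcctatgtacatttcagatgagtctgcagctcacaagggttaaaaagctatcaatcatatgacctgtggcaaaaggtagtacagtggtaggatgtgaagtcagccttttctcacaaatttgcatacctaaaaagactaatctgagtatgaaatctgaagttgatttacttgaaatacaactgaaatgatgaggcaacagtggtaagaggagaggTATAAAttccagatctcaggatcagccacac
The AP-1 letters stood 69 to 63 bases before the Plaur start site, and Plaur alone of the 7 genes held them. Of 32851 mouse promoter windows of this length, 4.46% held the AP-1 letters. TATAAA was found in 4 of the 7 genes, namely Serpinb2, Serpinb3a, Serpinb3b and Serpinb3c, against 12.4% of all windows. The Serpinb3a, Serpinb3b and Serpinb3c promoters share most of their letters around the match, so these matches are not independent of one another. The STAT motif TTCNNNGAA was found in 1 gene, at a second start site of Serpinb2 that is not printed, against 7.02% of all windows. The NF-kB motif (GGGA, any base, then TTTCC) was found in 0 of the 7 genes, against 0.356% of all windows. These matches describe letters and were not tested for binding.

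Total counts per sample ranged from 775750 to 14055206, so that 3 counts corresponded to between 0.225 and 3.78 CPM (counts scaled to a common library size of 1e+06). CPM here were scaled by the trimmed mean of M values (TMM). The TMM factor was 0.509 in cSCC 18 and 0.852 to 1.22 in the other samples, which raised the CPM of cSCC 18 the most. Whether a cSCC 18 value lay above the NS and AK ranges can depend on this scaling. Basal keratinocyte markers (Krt5, Krt14 and 5 others) summed to 3866 CPM or more in every sample, as skin would have. A number of the cSCC libraries stood apart from the rest. Heart muscle markers summed to 57328 CPM in cSCC 21 and to at most 157 CPM in any other sample. Lung epithelium markers summed to 36039 CPM in cSCC 20 and to at most 59.3 CPM elsewhere. Haemoglobin genes took 46.8% of the counts in cSCC 18 and 14.3% in AK 14, against 0.0917% to 6.02% in the other samples. Suprabasal keratinocyte markers (Krt1, Krt10, Krtdap, Lor, Flg and Ivl) summed to 10441 CPM in cSCC 18 but to 1262 in cSCC 19, 1706 in cSCC 20 and 692 in cSCC 21, below the 7138 CPM that was the lowest sum among NS and AK. These values are given beside the genes they moved with. In bulk tissue, fewer cells of a type and less RNA per cell cannot be told apart.

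Levels of the 9 genes were compared per length (median CPM per kilobase of exon) to place them against one another. In NS, Serpinb5 stood first at 675 CPM per kilobase (range 452 to 973), followed by Serpinb2 at 291 (range 122 to 802). Serpinb3b followed at 84.1 and Serpinb3a at 78.4, and then Serpinb3c at 10.9, Plat at 3.67, Serpine2 at 2.86, Plaur at 2.41 and Plau at 0.584. The ranges over the 8 NS samples overlapped between each of these neighbours except Serpinb3c and Plat, whose ranges of 5.09 to 27.7 and 1.52 to 4.78 were apart. The epidermal serpins were thus the abundant transcripts of the set in normal skin, and the urokinase genes the rare ones. In cSCC the median CPM per kilobase of Plaur was 44.2, that of Serpinb5 263 and that of Serpinb2 222.

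**Figure D1:**
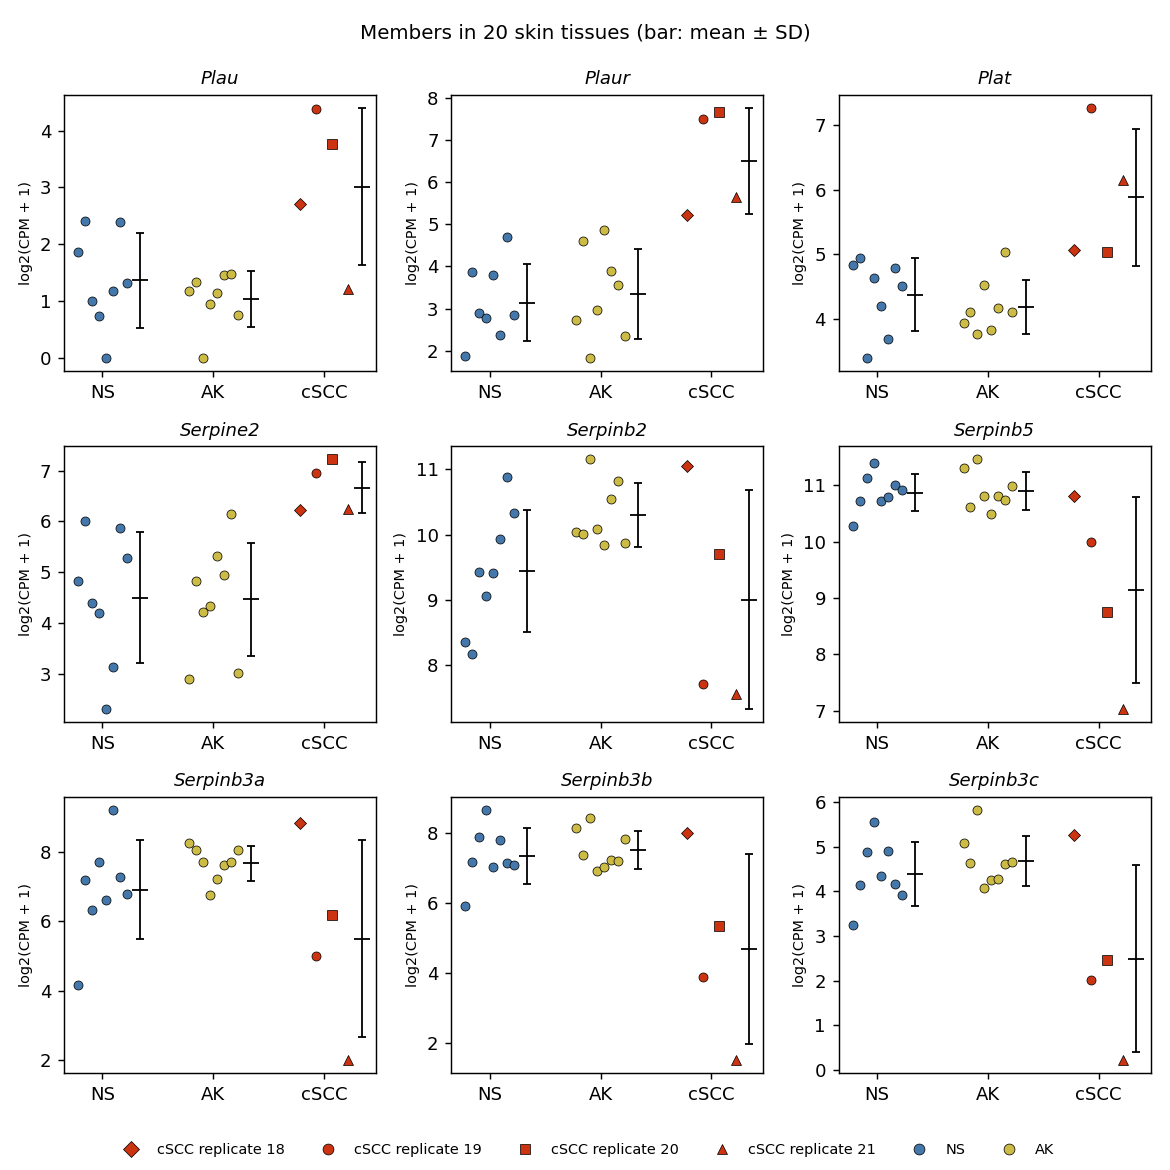
Level of each of the 9 genes in the 20 tissues, as log2(CPM + 1), with 1 point per sample and the group mean ± SD at the right of each group. With TMM scaling, all 4 cSCC points of Plaur, Plat and Serpine2 sit above every NS and AK point. For Serpinb3a, Serpinb3b and Serpinb3c, cSCC 18 (diamond) sits apart from the other cSCC points. For Serpinb2 and Serpinb5 it is the highest cSCC point.

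The question of the first comparison was whether the set already differed between AK and NS. None of the 9 genes was called as a differentially expressed gene (DEG), for which the limits were 1.5 and 0.67 on the fold change and 0.05 on the adjusted p. Of the 8 genes tested by edgeR's quasi-likelihood test with Benjamini-Hochberg adjustment over all genes, 0 were called, against 4.64% of the 11677 genes tested (2.26% called higher and 2.38% lower). Likewise 0 of the 8 had all AK samples above or all below the NS samples, a pattern seen for 0.394% and 0.128% of genes. No gene of the set reached an unadjusted p under 0.05 in that test, while DESeq2 and limma voom each gave 1 such gene and likewise called 0. Over all genes, 2875 of 11677 reached it in edgeR, 3027 in DESeq2 and 3257 in limma voom. DESeq2 called 1049 of all genes and limma voom 1043. Plau did not pass the filter on low counts in this comparison.

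Serpinb2 was the gene nearest to a call in AK. Its level had a minimum of 286 CPM, a median of 684 and a maximum of 1884 in NS, and of 919, 1072 and 2287 in AK. The groups overlapped, with 1 AK sample above every NS sample and the lowest AK sample above the NS median. Its log2 fold change was 0.67 ± 0.33 (SE, n = 8 and 8, adjusted p = 0.224 by edgeR's quasi-likelihood test). For the other 7 genes tested the log2 fold change lay between -0.25 for Plat and 0.35 for Plaur, each with an adjusted p of 0.564 or more by the same edgeR test. Those of Serpine2 (-0.15), Serpinb5 (0.02) and Serpinb3b (0.06) changed sign under another scaling or test.

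The second question was whether the set differed between cSCC and the other tissues. Plau, Plaur, Plat and Serpine2 were higher in cSCC than in NS, which made 4 of 9 genes, against 11.7% of the 12097 genes tested that were called higher. Compared with AK, Plaur, Plat and Serpine2 were higher, which made 3 of the 8 genes tested, against 16% of the 12032 genes. No gene of the set was called lower in either comparison, against 7.65% and 8.34% of all genes, so the activators, the receptor and a secreted inhibitor rose while no clade B serpin of the set was called. Serpinb5 was called lower in both comparisons, and Serpinb3b against AK, under other settings given below. In either direction 19.3% of genes were called against NS and 24.4% against AK. The median log2 fold change over the set was 0.05 against NS and -0.58 against AK, where that over all genes was 0.14 and 0.17. Both comparisons used the same 4 cSCC samples.

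**Figure D2:**
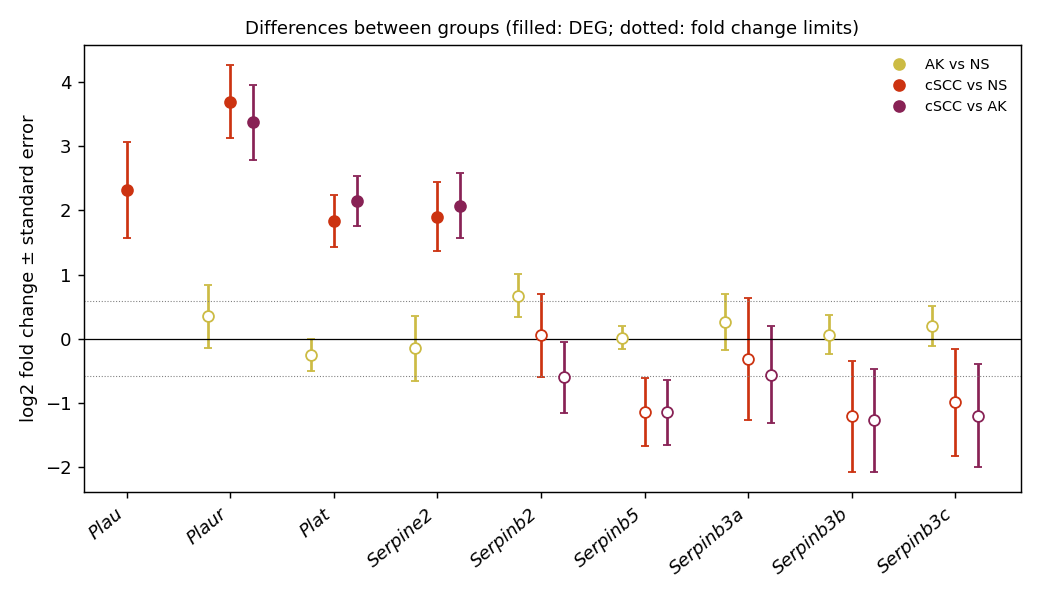
Log2 fold change ± SE of each gene in the 3 comparisons, with filled points for DEGs and dotted lines at the fold change limits of 1.5 and 0.67. Plaur has the largest values, 3.69 against NS and 3.37 against AK, and the AK against NS values all lie within 0.67 of 0.

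Plau, the urokinase gene, was the scarcest transcript of the set. In NS its level ran from 0 to 4.35 CPM with a median of 1.38, and in AK from 0 to 1.80 CPM with a median of 1.24. The 4 cSCC samples gave 5.56, 19.8, 12.5 and 1.32 CPM for cSCC 18, 19, 20 and 21. Thus 3 of the 4 cSCC samples lay above every NS and AK sample, and cSCC 21 lay within their range. These levels rested on 65 reads over the 8 NS samples, 49 over the 8 AK samples and 72 over the 4 cSCC samples, and 3 counts corresponded to 3.78 CPM in AK 12 and to 3.41 CPM in cSCC 20. The log2 fold change of cSCC against NS was 2.31 ± 0.75 (SE, n = 4 and 8, adjusted p = 0.0439 by edgeR's quasi-likelihood test). This call was lost in 8 of 12 fits that left out 1 sample, namely NS 1, 4, 5, 6, 7 or 9 or cSCC 19 or 20, the largest adjusted p in edgeR being 0.213 without cSCC 19, where the log2 fold change was 1.65. Against AK, Plau was not tested because of low counts. Without the filter its log2 fold change against AK was 2.93 (adjusted p = 0.0109 by edgeR's quasi-likelihood test).

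Plat, the gene of the tissue-type activator, was more abundant and changed more evenly. Its lowest, median and highest levels were 9.50, 22.9 and 29.8 CPM in NS and 12.6, 16.2 and 31.8 CPM in AK. In cSCC it was 32.6 CPM in cSCC 18, 153 in cSCC 19, 31.9 in cSCC 20 and 70.3 in cSCC 21. With TMM scaling, all cSCC samples lay above all NS and AK samples, although cSCC 20 exceeded AK 16 only narrowly. The log2 fold change was 1.83 ± 0.41 against NS (adjusted p = 0.00836) and 2.14 ± 0.39 against AK (adjusted p = 0.00308), both by edgeR's quasi-likelihood test with n = 4 and 8. It rested most on cSCC 19, without which it was 1.17 and 1.49, and the call was kept in all 12 fits without 1 sample in both comparisons. Endothelial markers, which mark a cell type known to make this activator, summed to 124, 149, 257 and 638 CPM in cSCC 18, 19, 20 and 21. In NS their sum was at most 124 CPM and in AK at most 113. The highest Plat level thus occurred in cSCC 19 and the highest endothelial sum in cSCC 21, and the part of these cells in the Plat difference was not tested.

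Plaur, the receptor gene, showed the largest change of the set. Its lowest, median and highest levels were 2.64, 6.31 and 25.0 CPM in NS and 2.52, 8.78 and 28.3 CPM in AK. In cSCC it was 36.1, 182, 201 and 49.3 CPM for cSCC 18, 19, 20 and 21. All cSCC samples were above all NS and AK samples in CPM with TMM factors, a pattern that Plat and Serpine2 shared. It was shown by 2.7% of genes against NS and 3.33% against AK. In reads without these factors, Plaur had 52 of 2830894 in cSCC 18 and 82 of 3318488 in NS 8. Plat had 47 and 88 reads in the same samples, and Serpine2 106 and 188. By total counts alone, cSCC 18 was thus not above NS 8 for these genes. No gene of the set had all cSCC samples below the other group, as 5.73% of genes did against NS and 6.84% against AK. Within cSCC, cSCC 19 and cSCC 20 were well above cSCC 18 and cSCC 21. The log2 fold change was 3.69 ± 0.57 against NS (adjusted p = 0.00167) and 3.37 ± 0.58 against AK (adjusted p = 0.00253), both by edgeR's quasi-likelihood test with n = 4 and 8. These are fold changes of 12.9 and 10.3. No sample that was left out ended either call, and without cSCC 20 and 21 together the log2 fold changes were 3.57 and 3.24.

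Plaur is made by neutrophils and macrophages as well as by tumour cells, so the markers of both were set beside it. Neutrophil markers (8 genes) summed to 14744, 3296, 3817 and 2174 CPM in cSCC 18, 19, 20 and 21, but S100a8 and S100a9, which stressed keratinocytes also make, held most of this sum. The other 6 genes (Csf3r, Cxcr2, Ly6g, Mpo, Retnlg and Trem1) summed to 175, 327, 452 and 204 CPM in the same samples, against 9.16 to 303 CPM in NS and 44.2 to 136 CPM in AK. The order of the 4 cSCC samples by this sum was that of their Plaur levels. Trem1, a receptor of neutrophils and monocytes, was 41.7, 102, 117 and 26.6 CPM in cSCC 18, 19, 20 and 21, above all AK samples (median 2.06 CPM) and all NS samples (at most 5.48 CPM), and was higher in cSCC by 5.75 ± 0.89 against NS and 4.25 ± 0.90 against AK on the log2 scale. Csf3r, the receptor for granulocyte colony-stimulating factor, was higher by 3.41 ± 0.84 and 3.78 ± 0.61 in the same order. Its level was 17.4, 26.8, 10.2 and 31.8 CPM in cSCC 18, 19, 20 and 21, lowest in cSCC 20, where Plaur was highest. Cxcr2 was also called higher, by 1.78 ± 0.53 and 1.37 ± 0.34. Retnlg (1.72 and 1.44) and Ly6g (0.89 and 0.13) were not called. Mpo went the other way, with medians of 1.44 CPM in NS, 0.733 in AK and 0.165 in cSCC. Outside cSCC, the highest sum of the 6 genes was 303 CPM in NS 9, where Plaur was 6.17 CPM. Macrophage markers (8 genes in the table) summed to 2294, 5422, 7423 and 849 CPM in cSCC 18, 19, 20 and 21, and to 8066 CPM in AK 14, where Plaur was 28.3 CPM. In cSCC 21, with the lowest macrophage sum of the 20 samples, Plaur was 49.3 CPM. The part of these cells in the Plaur difference was not tested.

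**Figure D3:**
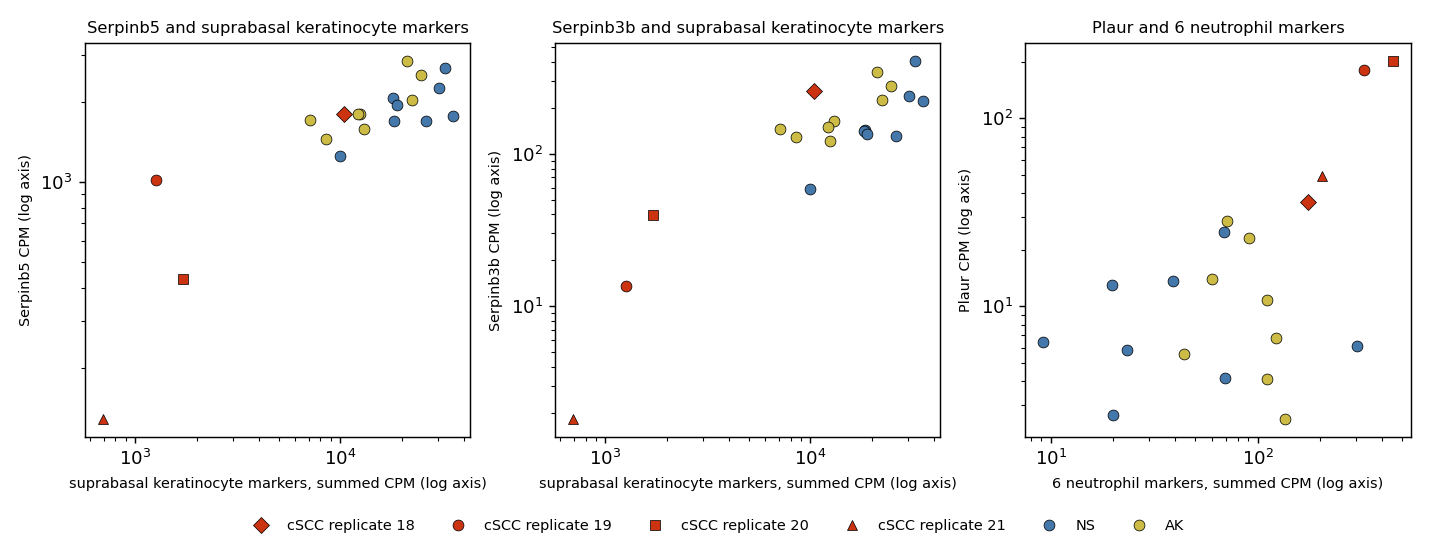
Serpinb5 and Serpinb3b against the summed suprabasal keratinocyte markers, and Plaur against the sum of the 6 neutrophil markers other than S100a8 and S100a9, with 1 point per sample and CPM on log axes. cSCC 19, 20 and 21 lie at the low end of both axes in the serpin panels, with marker sums of 1262, 1706 and 692 CPM, and cSCC 18 lies among the AK points with 10441 CPM. In the Plaur panel, the cSCC points rise together from cSCC 18 (175 CPM of markers, 36.1 CPM of Plaur) to cSCC 20 (452 and 201 CPM), and NS 9 has 303 CPM of markers with 6.17 CPM of Plaur.

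Serpine2, the secreted inhibitor, rose together with the activators. Its lowest, median and highest levels were 3.94, 23.7 and 63.4 CPM in NS and 6.51, 23.3 and 70.1 CPM in AK. In cSCC it was 73.6, 123, 149 and 75.1 CPM for cSCC 18, 19, 20 and 21. With TMM scaling, every cSCC sample was above every NS and AK sample, with cSCC 18 and 21 just above the highest AK sample. The log2 fold change was 1.90 ± 0.54 against NS (adjusted p = 0.0253) and 2.07 ± 0.51 against AK (adjusted p = 0.0110), both by edgeR's quasi-likelihood test with n = 4 and 8. Against NS the call was lost without cSCC 19 (adjusted p = 0.0556 in edgeR) and without cSCC 20 (adjusted p = 0.0637 in edgeR). Without cSCC 20 and 21 together it was lost in both comparisons, with log2 fold changes of 1.77 (adjusted p = 0.0939 in edgeR) and 1.95 (adjusted p = 0.0504 in edgeR). Fibroblast markers summed to 1871, 5044, 5998 and 1934 CPM in cSCC 18, 19, 20 and 21, against 2178 to 8046 CPM in NS and 2556 to 5840 CPM in AK, and their part in the Serpine2 difference was not tested.

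Serpinb2, the inhibitor of plasminogen activators in clade B, was scattered in cSCC. It was 2115 CPM in cSCC 18, 208 in cSCC 19, 833 in cSCC 20 and 186 in cSCC 21, beside the NS and AK ranges given above. cSCC 18 lay above every NS sample, and cSCC 19 and 21 lay below every NS and AK sample. The log2 fold change was 0.05 ± 0.64 against NS (adjusted p = 0.963) and -0.60 ± 0.55 against AK (adjusted p = 0.449), both by edgeR's quasi-likelihood test. The sign against NS turned under scaling by library size alone, to -0.52, and under limma voom, to -0.12.

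Serpinb5, the maspin gene, was the most abundant of the set and the steadiest in NS and AK. Its lowest, median and highest levels were 1244, 1855 and 2677 CPM in NS and 1444, 1797 and 2833 CPM in AK. In cSCC it was 1797 CPM in cSCC 18, 1019 in cSCC 19, 430.1 in cSCC 20 and 129 in cSCC 21. The last 3 of these lay below every NS and AK sample and cSCC 18 lay within their range. The log2 fold change was -1.14 ± 0.53 against NS (adjusted p = 0.144) and -1.14 ± 0.51 against AK (adjusted p = 0.111) by edgeR's quasi-likelihood test, short of a call. Serpinb5 was called lower in both comparisons with library size alone (adjusted p = 0.0376 and 0.0354 in edgeR), with limma voom (adjusted p = 0.0258 and 0.0275) and with all 20 samples in 1 edgeR fit (adjusted p = 0.0495 and 0.0404).

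Serpinb3a, Serpinb3b and Serpinb3c followed the same split among the cSCC samples. Serpinb3b, with lowest, median and highest levels of 59.1, 142 and 406 CPM in NS and 121, 158 and 343 CPM in AK, was 258 CPM in cSCC 18, 13.6 in cSCC 19, 39.8 in cSCC 20 and 1.82 in cSCC 21. Serpinb3a ran from 16.9 to 593 CPM in NS with a median of 128 and from 107 to 306 CPM in AK with a median of 207. In cSCC, Serpinb3a was 451, 31.2, 71.7 and 2.98 CPM for cSCC 18, 19, 20 and 21. For both genes cSCC 19, 20 and 21 were below all AK samples, and for Serpinb3b below all NS samples as well. Serpinb3c was 37.5, 3.08, 4.55 and 0.165 CPM in the same order of cSCC samples, against 8.45 to 45.9 CPM in NS (median 18.1) and 15.9 to 55.5 CPM in AK (median 23.5). The value in cSCC 21 was a single read. The log2 fold changes were -0.32 ± 0.95, -1.21 ± 0.86 and -0.99 ± 0.84 against NS for Serpinb3a, Serpinb3b and Serpinb3c, with adjusted p of 0.851, 0.346 and 0.432 by edgeR's quasi-likelihood test. Against AK they were -0.56 ± 0.76, -1.27 ± 0.81 and -1.20 ± 0.80, with adjusted p of 0.626, 0.262 and 0.292 by the same edgeR test. With limma voom, Serpinb3b was called lower against AK, at -2.51 (adjusted p = 0.0303). When the counts of these genes and the fourth copy, Serpinb3d, were summed, the level was 781, 49.2, 118 and 5.13 CPM in cSCC 18, 19, 20 and 21, against 86.2 to 872 CPM in NS and 251 to 633 CPM in AK. The sum gave a log2 fold change of -0.69 against NS (adjusted p = 0.614) and -0.87 against AK (adjusted p = 0.439) by edgeR's quasi-likelihood test.

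The clade B results turned on cSCC 18. Without this sample, the number of genes of the set called rose from 4 to 7 against NS and from 3 to 8 against AK. Calls over all genes rose as well, from 2340 of 12097 to 3181 of 12636 genes against NS. Against AK they rose from 2935 of 12032 to 3994 of 12734 genes. Lower calls over all genes went from 926 to 1291 against NS and from 1004 to 1664 against AK. Against NS the 3 added genes of the set were all lower, Serpinb5 at -1.85 (adjusted p = 0.0217), Serpinb3b at -3.42 (adjusted p = 0.0101) and Serpinb3c at -3.41 (adjusted p = 0.0103), by edgeR's quasi-likelihood test on the log2 scale. Against AK all 5 clade B genes were lower without cSCC 18, with log2 fold changes from -1.66 for Serpinb2 (adjusted p = 0.0255) to -3.66 for Serpinb3c (adjusted p = 0.00356) in the same edgeR test. When cSCC 20 and 21, which carried the lung and heart transcripts, were left out together, 0 clade B genes were called lower in either comparison. Over all genes, 825 of 12762 were then lower against NS and 741 of 12567 against AK. Serpinb3a then stood at 0.46 against NS and 0.22 against AK on the log2 scale, with adjusted p of 0.783 and 0.844 in edgeR. The samples with the lowest Serpinb5, Serpinb3b and Serpinb3c levels, cSCC 19, 20 and 21, were those with the lowest suprabasal keratinocyte sums. Serpinb2 and Serpinb3a did not follow this fully. Serpinb2 was 833 CPM in cSCC 20, above the NS median of 684 CPM. Serpinb3a was 16.9 CPM in NS 1, where the suprabasal sum was 9947 CPM, and 31.2 CPM in cSCC 19. Basal keratinocyte markers summed to 18488 CPM in cSCC 19, the highest of the 20 samples, where Serpinb3b was 13.6 CPM. In cSCC 18 the basal sum was 17881 CPM and Serpinb3b was 258 CPM. In cSCC 20 and 21, where Serpinb3b was 39.8 and 1.82 CPM, the basal sums were 5412 and 3866 CPM. The basal sum was 5312 to 16334 CPM in NS and 9323 to 14363 CPM in AK, so that of cSCC 21 was the lowest of all samples. The part of keratinocyte differentiation state in the clade B levels was not tested.

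**Figure D4:**
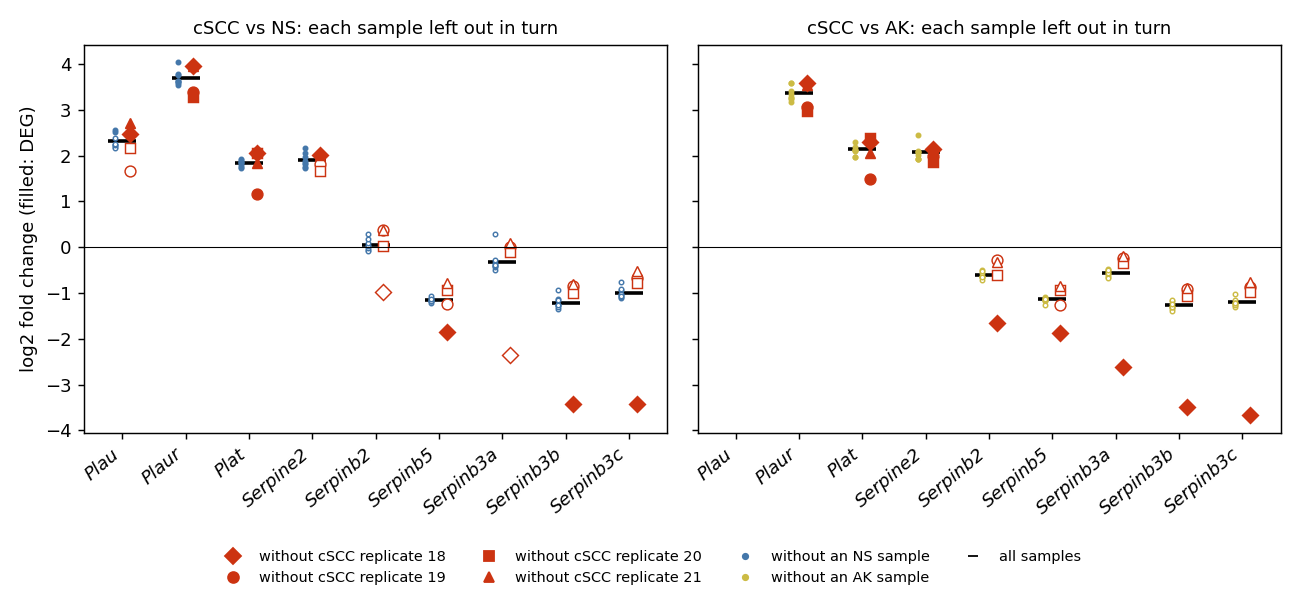
Log2 fold change of each gene in cSCC against NS (left) and AK (right) when each sample is left out in turn, with filled symbols for DEGs and bars for the fit with all samples. Leaving out cSCC 18 (diamonds) moves the clade B serpins to between -0.98 and -3.66, while Plaur stays at 2.98 or more in every fit.

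The balance within the system was read from ratios inside each sample, as log2 of (CPM + 1) over (CPM + 1), with 6 exact two-sided permutation tests in all. The Serpinb2 to Plau ratio, an inhibitor set against its protease, was 8.33 in cSCC 18, 3.33 in cSCC 19, 5.95 in cSCC 20 and 6.33 in cSCC 21. It was 5.75 to 9.41 in NS and 8.67 to 11.2 in AK. All cSCC samples lay below all AK samples, and the cSCC range overlapped that of NS. The difference between cSCC (5.99 ± 2.06, SD, n = 4) and AK (9.26 ± 0.801, SD, n = 8) was -3.27, with an exact permutation p of 0.00202, the smallest that 495 splits allow, and an adjusted p of 0.0121. Against NS (8.08 ± 1.27, SD, n = 8) the difference was -2.09 (exact permutation p = 0.0525, adjusted p = 0.105). Between AK and NS it was 1.18 (exact permutation p = 0.0250, adjusted p = 0.0751). The AK values rested on few Plau reads, and AK 12, the highest at 11.2, had 0 Plau counts.

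The Plau to Plat ratio, which sets the activators against each other, did not pass a test in any comparison. The NS samples had a mean of -3.01 ± 0.707 and the AK samples one of -3.15 ± 0.455, while the mean of cSCC was -2.87 ± 1.53 (SD, n = 8, 8 and 4). The cSCC samples spread from -4.94 in cSCC 21 to -1.28 in cSCC 20. The exact permutation tests gave adjusted p of 0.778 or more.

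**Figure D5:**
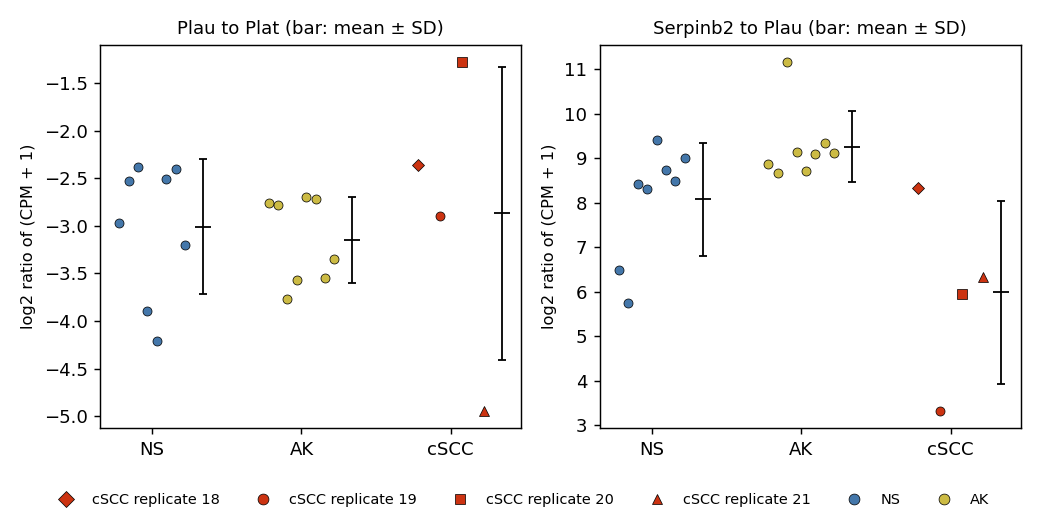
Plau to Plat and Serpinb2 to Plau ratios per sample, as log2 of (CPM + 1) over (CPM + 1), with group mean ± SD. The Serpinb2 to Plau ratio of the 4 cSCC samples (3.33 to 8.33) lies below that of the 8 AK samples (8.67 to 11.2), and the Plau to Plat ratios of the groups overlap.

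Across the 20 samples the set split into 2 blocks of like profile. The distance between genes was the root mean square difference of log2(CPM + 1) profiles scaled to mean 0 and SD 1, and its median to all genes compared was 1.40 to 1.44 for the 9 genes. Plau, Plaur, Plat and Serpine2 were 0.663 to 0.808 from one another, and the clade B genes 0.180 to 0.939. Between the blocks the distance was 1.54 to 1.88. Among 10820 genes compared for Plau and 10819 for each of the others, those nearest to Plau were Arpc1b (0.321), Hmga2 (0.424) and Cxcl1 (0.447), and those nearest to Plaur were Wdr1 (0.503), Cfl1 (0.511) and Cyp4f18. Plat was nearest to Cotl1, Gss (0.510) and Tubgcp2 (0.512), and Serpine2 to Map1b, Olfml3 and Arf2 (0.505 to 0.543). Serpinb2 was nearest to Defb1 (0.379), Nudt5 and Serpinb6c. Serpinb5 was nearest to Sptssa (0.248), Cyp51 and Car13, and Serpinb3a to Stfa3 (0.397), Nme1 and Rer1. Serpinb3b and Serpinb3c were nearest to each other (0.180), followed by Ggct for Serpinb3b and by Eapp and Rnf11 for Serpinb3c. These distances share libraries and depth and are given as a description.

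Other genes of plasminogen activation were read from a list of 20. Plg, the substrate plasminogen, which is made by the liver, had 4 reads in all, in NS 4 and NS 7, and none in AK or cSCC. In AK against NS, 1 of 12 tested genes was called, against 4.64% of all genes. It was Thbd (thrombomodulin), higher by 1.07 ± 0.31 on the log2 scale (adjusted p = 0.0494 by edgeR's quasi-likelihood test). That call was lost in 13 of 16 fits without 1 sample, all but those without NS 7, NS 8 or AK 10. In cSCC against NS, 3 of 14 were higher and 0 lower, with Vtn and Eno1 among them, beside 11.7% of all genes called higher.

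Eno1 (enolase, a glycolytic enzyme that also binds plasminogen) was higher by 1.84 ± 0.35 against NS and 1.72 ± 0.29 against AK on the log2 scale, and was among the 2 of 13 genes called higher against AK, where 0 were lower and 16% of all genes were called higher. Its cSCC levels of 545, 825, 338 and 339 CPM lay above all NS samples (at most 315 CPM) and all AK samples (at most 246 CPM). The Eno1 calls were kept without any 1 sample. The call of Vtn (vitronectin) against NS rested on cSCC 21, where it was 49.6 CPM against at most 3.51 CPM in every other sample. Its log2 fold change was 3.15 with all samples and -0.37 (adjusted p = 0.865 by edgeR's quasi-likelihood test) without cSCC 21, the library with the heart transcripts.

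The list of integrins and other proteins that bind or resemble the urokinase receptor held 12 genes, all tested. In AK against NS, 0 of 12 were called by edgeR, against 4.64% of all genes. At an unadjusted p under 0.05 there were 2, beside 2875 of 11677 over all genes. DESeq2 and limma voom each called 1 of the list, beside 1049 and 1043 of the same 11677 genes. In cSCC against NS, 5 rose and 1 fell, beside 11.7% and 7.65% of all genes. The formyl peptide receptors Fpr1 and Fpr2, which guide phagocytes, rose by 3.27 ± 0.96 and 2.92 ± 0.96 on the log2 scale, and the integrin chains Itga5, Itga3 and Itgb1 by 2.68 ± 0.58, 2.07 ± 0.48 and 1.67 ± 0.30. Egfr, the epidermal growth factor receptor, fell by 1.04 ± 0.32. Against AK, where 16% and 8.34% of all genes rose and fell, 5 rose and 1 fell again, with Fpr1 (2.36), Itga3 (2.36), Fpr2 (2.32), Itga5 (2.11) and Itgb5 (1.08) higher and Egfr lower by -1.02 on the log2 scale. The Egfr levels in cSCC were 65.3, 47.5, 35.3 and 14.1 CPM, all below the lowest NS (70.3 CPM) and AK (66.3 CPM) samples. Itga3 was 127 CPM in cSCC 19 and 20.5 to 22.2 CPM in the other cSCC samples, and it was not called without cSCC 19, at 0.90 against NS and 1.20 against AK. Itga5 was 52.3 CPM in cSCC 21 and was not called without it, at 1.81 against NS and 1.10 against AK, nor against AK without AK 10, 13, 14 or 17. Of the other calls, Itgb1 against NS and Fpr1 against AK were kept without any 1 sample. Fpr1 against NS was lost without NS 4 or 5 or cSCC 19 or 20, Fpr2 against NS without any sample but NS 9, cSCC 18 or cSCC 21, and Fpr2 against AK without cSCC 20. Egfr was not called without cSCC 20 in either comparison, without cSCC 19 or NS 1, 4, 5, 6, 7 or 9 against NS, or without AK 10 or 17 against AK. Itgb5 was lost without AK 12, 13, 15, 16 or 17 or without cSCC 19, 20 or 21. Without cSCC 20 and 21 together, 2 genes of this list were higher against NS and 4 against AK, and none was lower. Over all genes, 733 of 12762 were then higher against NS and 843 of 12567 against AK.

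The other clade B serpins, 22 genes of which 21 were in the table, were called in both directions, of which the higher calls in cSCC were near the share over all genes. Over all genes, 2.26% were called higher and 2.38% lower in AK against NS. In AK against NS, 1 of 16 tested was higher, Serpinb1b (1.52 ± 0.42), and 1 lower, Serpinb7 (-1.73 ± 0.43 on the log2 scale), calls that were lost in 11 and 8 of 16 fits without 1 sample, both of them without NS 2, 4 or 5 or AK 12 to 16. In cSCC, 2 of 16 were higher in each comparison, where 11.7% of all genes were called higher against NS and 16% against AK. These were Serpinb6b and Serpinb9 (an inhibitor of granzyme B), by 3.30 ± 0.54 and 1.84 ± 0.47 against NS and by 2.60 ± 0.59 and 1.26 ± 0.44 against AK on the log2 scale. Serpinb6b was highest in cSCC 21 at 119 CPM and Serpinb9 in cSCC 19 at 139 CPM, and without cSCC 19 the log2 fold change of Serpinb9 was 1.13 against NS and 0.55 against AK, neither called. Against AK, Serpinb9 also lost its call without any one of the 8 AK samples and without cSCC 20 or cSCC 21, and Serpinb6b without cSCC 21 (1.47).

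The clade B genes called lower in cSCC were 3 of 16 against NS and 5 of 16 against AK, beside 7.65% and 8.34% of all genes. Serpinb7, a serpin of the upper epidermis, was 19.4, 0.879, 2.28 and 0 CPM in cSCC 18, 19, 20 and 21, against 82.5 to 854 CPM in NS and 52.7 to 282 CPM in AK. Every cSCC sample, cSCC 18 included, was thus below every NS and AK sample. Its log2 fold change was -6.24 ± 1.18 against NS (adjusted p = 0.00414) and -4.53 ± 1.01 against AK (adjusted p = 0.00713) by edgeR's quasi-likelihood test. Serpinb13 had 0 counts in all 4 cSCC samples against means of 9.15 CPM in NS and 6.33 in AK, which is at least 2.68-fold and 1.86-fold lower when 3 counts in cSCC 20 (3.41 CPM), the highest floor among the cSCC libraries, are taken as the floor. Serpinb8 was lower by -1.68 ± 0.52 against NS and -1.39 ± 0.45 against AK on the log2 scale. Serpinb6d (-3.60) and Serpinb11 (-1.77) were lower against AK. The call of Serpinb7 against AK was kept by edgeR without any 1 sample but not by limma voom (adjusted p = 0.0688). Serpinb8, Serpinb6d and Serpinb11 were not called without cSCC 19, nor without certain NS or AK samples, nor, for Serpinb8 and Serpinb11, without cSCC 20, nor, for Serpinb6d and Serpinb11, without cSCC 21. Without cSCC 18 the numbers lower were 6 of 16 against NS and 8 of 17 against AK, and without cSCC 20 and 21 together they were 2 and 2. Over all genes, 1291 of 12636 and 1664 of 12734 were lower without cSCC 18. Without cSCC 20 and 21 together, 825 of 12762 and 741 of 12567 were lower.

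The list of cathepsins and granule proteases served to see whether other proteases moved with the set. In all 3 comparisons 0 of 9 tested were called by edgeR's quasi-likelihood test. Over all genes, 4.64% were called in AK against NS, 19.3% in cSCC against NS and 24.4% in cSCC against AK. At an unadjusted p under 0.05 there were 2 in AK against NS, 2 in cSCC against NS and 4 in cSCC against AK. Over all genes these were 2875 of 11677, 4116 of 12097 and 4619 of 12032. DESeq2 called 2, 0 and 2 in the same order, and limma voom 2, 0 and 0. Over the same genes DESeq2 called 1049, 2736 and 3369, and limma voom 1043, 1308 and 1270.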

How the data were processed

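RNA-seq of 8 NS, 8 AK and 4 cSCC tissues was analysed from 1 table of raw counts per gene symbol that the authors deposited, with no normalization applied. Per the labels, libraries were made from total RNA with a Nextera kit and read as paired ends on a HiSeq, while the methods name a NextSeq. The submitters' processing notes list Trimmomatic 0.36, HISAT2 2.0.5 and featureCounts 1.5.2 with the builds hg19 and mm9, whereas the methods name GRCm38 and StringTie, so the annotation behind the counts and the strand setting are not settled. The table holds symbols and no coordinates.

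Groups came from the disease state in the labels. Pairs of groups were compared with edgeR 4.0.16 in R 4.3.3 (TMM factors, filterByExpr, glmQLFit and glmQLFTest), with Benjamini-Hochberg adjustment over all genes tested. The DEG limits were an adjusted p of 0.05 and fold changes of 1.5 and 0.67. CPM used TMM factors over all 20 samples. Group levels are mostly given as lowest, median and highest values, ratios and figure bars as means ± SD, and log2 fold changes ± SE. Within-sample ratios used a pseudocount of 1 CPM and exact permutation tests over all splits (numpy 2.4.6). Their p-values were adjusted by Benjamini-Hochberg over the 6 tests (scipy 1.17.1). Coding sequences were aligned with mafft. The fits were tested on simulated counts with known changes. Total counts ran from 1624325 to 6295575 in NS, from 867219 to 14055206 in AK and from 775750 to 7095102 in cSCC, and the smallest libraries limit what can be said of Plau. Floors of 3 counts cover counting error only. All 62 pairs of samples of a group differed by more than sampling noise (chi-square per degree of freedom of at least 11.3).

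The genes and gene lists were chosen with earlier results of these data known. All 9 genes are named in every comparison. Of the other lists, genes called in a comparison are named, up to 6 per list and comparison, with Plg, and the 3 nearest profiles of each gene among genes with a mean of at least 5 CPM. A few results that this rule would name are not reported here. Alternatives were DESeq2 1.42.0, limma voom (limma 3.58.1), other scalings, filters and pseudocounts, 1 fit of all 20 samples, and samples left out. Leaving out haemoglobin genes, summing the Serpinb3 genes, leaving S100a8 and S100a9 out of the neutrophil sum, and running these alternatives on the genes of the other lists were chosen after seeing the data.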

Additional observations from a re-analysis of the deposited data

How the results depend on the processing

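Plaur and Plat were called higher in cSCC under all alternatives run, in both comparisons. Labels and depth limit the rest: tissues of 1 mouse cannot be matched, and Plau rested on few reads. No paired analysis was possible because the groups share no replicate numbers and the labels give no mouse. The number of DEGs in AK against NS was 542 and became 1049 with DESeq2, 1043 with limma voom and 9 with all 20 samples in 1 fit. In cSCC against NS it was 2340 and became 1308 with limma voom and 1558 without cSCC 20 and 21, and in cSCC against AK 2935, 1270 and 1584. Library size alone moved the median log2 fold change of all genes from -0.04, 0.14 and 0.17 to -0.13, -0.17 and -0.09 in AK against NS, cSCC against NS and cSCC against AK. The split of higher and lower DEGs then went from 264 and 278 to 176 and 481, from 1414 and 926 to 625 and 1332, and from 1931 and 1004 to 1021 and 1356, and upper quartile factors gave 190 and 391 in AK against NS. Genes of the set called in cSCC against AK were 5 with limma voom and 5 with all 20 samples in 1 fit. Signs reversed in AK against NS for Serpine2 with limma voom (0.035), for Serpinb5 with library size alone (-0.086), upper quartile factors (-0.048) and limma voom (-0.037), and for Serpinb3b with library size alone (-0.043) and upper quartile factors (-0.0085). In cSCC against NS they reversed for Serpinb2 with library size alone (-0.52) and limma voom (-0.12). Without cSCC 20 and 21 they reversed for Serpinb3a (0.46 against NS and 0.22 against AK) and for Vtn against NS (-1.63). The Serpinb2 to Plau difference of cSCC against AK was then -3.43 (exact permutation p = 0.0222, adjusted p = 0.0751), as large as before, but with 2 cSCC samples only 45 splits exist and this p is the smallest they allow. None of these reversals concerned a called gene of the set, and the cause was not tested. With each sample left out in turn, DEGs ranged from 164 to 920 in AK against NS, from 1695 to 3181 in cSCC against NS and from 1787 to 3994 in cSCC against AK, and the genes of the set called from 2 to 7 in cSCC against NS and from 3 to 8 in cSCC against AK. In AK against NS the log2 fold change ranged from -0.51 to 0.11 for Serpine2, from -0.081 to 0.10 for Serpinb5, from -0.10 to 0.33 for Serpinb3b and from -0.020 to 0.43 for Serpinb3c. In cSCC against NS it ranged from -0.98 to 0.38 for Serpinb2, from -2.36 to 0.29 for Serpinb3a and from -0.37 to 3.56 for Vtn. The Serpinb2 to Plau difference ranged from 0.85 to 1.37 in AK against NS, past the threshold without NS 6 or NS 9, from -2.87 to -1.20 in cSCC against NS, past it without NS 2, and from -4.06 to -2.39 in cSCC against AK. The Plau to Plat difference ranged from -0.39 to 0.83 in cSCC against NS and from -0.25 to 0.97 in cSCC against AK.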

Other observations

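Marker lists were also counted over the comparisons by edgeR's quasi-likelihood test. In cSCC, 7 of 8 endothelial genes were higher than in NS and 8 of 8 higher than in AK, with median log2 fold changes of 2.02 and 2.04. Their sum was highest in cSCC 21 (638 CPM) and cSCC 20 (257 CPM), the libraries with heart and lung transcripts. It was 149 CPM in cSCC 19 and 124 CPM in cSCC 18, beside 124 CPM in NS 9. The part of the heart and lung transcripts in these calls was not tested. Of the suprabasal keratinocyte genes, 5 of 6 were lower than in NS and 4 of 6 lower than in AK, with medians of -3.75 and -3.07, whereas 0 of 7 basal keratinocyte genes and 0 of 4 stress keratins were called in any comparison. Of the neutrophil genes, 3 of 7 were higher than in NS and 5 of 7 higher than in AK. Of the macrophage genes, 2 of 8 were higher in each. Beside these counts, 11.7% of all genes tested were called higher against NS and 7.65% lower. Against AK the shares were 16% and 8.34%. For AK against NS, 4.64% of all genes were called in either direction.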
